A study of Mus musculus with 4 samples.

Results

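The response of RAW264.7 cells to LPS was followed in cells that carried a control siRNA. RAW264.7 is an established mouse macrophage-like line, and LPS (lipopolysaccharide) is a component of the outer membrane of Gram-negative bacteria. The LPS group was transfected with a non-targeting siRNA and given LPS, and the DMSO group carried the same non-targeting siRNA and was given DMSO, a solvent. Cells were analysed 2 days after transfection, by electroporation or a lipid reagent (the labels do not say which was used here), and neither the dose nor the duration of LPS is given in the sources used here. The remaining 2 arrays of the 4 in the series came from cells with an siRNA pool against Ruvbl2, again with LPS or DMSO. Of 22911 genes named on the array, 13512 could be compared between LPS and DMSO, because the probe that stood for them was well above background on at least 1 of the 2 control siRNA arrays. Of these, 12720 were measured on both arrays, 397 on the LPS array alone and 395 on the DMSO array alone, 9350 genes were dim on both, and for 49 the array that cleared background was the dimmer one, so no difference was set.

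LPS binds Toll-like receptor 4 with the help of CD14 and MD-2. The adaptor MyD88 then leads to the transcription factors NF-kB and AP-1 and to genes for cytokines, chemokines and enzymes such as inducible nitric oxide synthase. The adaptor TRIF leads to IRF3 and interferon beta, which acts back on the cell through STAT and IRF factors on genes that carry an interferon-stimulated response element (ISRE). Macrophages also raise inhibitors of both arms, change their metabolism, and remodel their surface and lysosomes over the hours that follow.

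Levels are log2 processed signal minus the 75th percentile of the array, so 0 is the 75th percentile and each probe is compared only with itself. With 1 array for each group, no replicate error and no p-value can be had, the treatment cannot be told apart from the culture or array, and precision is limited by how few arrays there are. "Rose" and "fell" below are used for genes past a size rule of 2-fold and carry no test. The spots of spike-in probes, printed up to 35 times each, gave an SD of the log2 difference of 0.50 at a DMSO level of -4.67, 0.14 at -1.45 and 0.069 at 1.59, which is the error within an array. The 75th percentile lay at a signal of 395 on the LPS array and 456 on the DMSO array, 54.1% and 55.0% of spots were well above background, and no spot was saturated. The 7 spike-in probes in range differed by a median of -0.07 between LPS and DMSO. For a gene that cleared background on 1 array only, the other array was given its floor, the lowest level of any probe that cleared background there (-4.83 with LPS and -5.15 with DMSO), and the difference is stated as at least so many fold. If its own value lay above that floor, this value was kept, and the difference is then no lower limit.

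The cells carried macrophage transcripts, with 11 of 12 defining markers measured on both arrays and Mertk dim. Csf1r, the receptor for the macrophage growth factor CSF1, stood at 8.55 with LPS and 8.93 with DMSO. Cd68, a lysosomal glycoprotein, stood at 7.09 with LPS and 6.97 with DMSO. Adgre1, an adhesion receptor of mouse macrophages, was at 4.26 with LPS and 3.15 with DMSO, a 2.17-fold rise. Markers of other cells were measured on both arrays to a varying extent, 7 of 10 for T cells, 2 of 8 for B cells, 1 of 7 for NK cells, 3 of 9 for neutrophils, 2 of 7 for mast cells, 2 of 7 for dendritic cells, 2 of 8 for fibroblasts, 0 of 7 for epithelium, 3 of 6 for endothelium and 1 of 6 for erythroid cells. Siglech, a lectin of plasmacytoid dendritic cells, was bright on both, at 6.90 with LPS and 7.28 with DMSO. Lck, a kinase of T cells, rose 2.50-fold (1.97 with LPS and 0.65 with DMSO), 1 of 2 rises among the 7 measured T cell markers, of which 4 lay below 0 (median -0.054). Kdr, a VEGF receptor of endothelium, rose 3.93-fold (-2.56 with LPS and -4.54 with DMSO), with its call lost after normexp correction and quantile normalization. Vwf, another endothelial marker, was dim with LPS and at -3.64 with DMSO, at least 2.29-fold lower. Hdc, the histidine decarboxylase of mast cells, stood at 0.76 with LPS and -3.01 with DMSO, 13.7-fold higher. The part of other cells in the results was not tested. Ruvbl2, the target of the other siRNA, stood at 4.92 with LPS and 5.01 with DMSO, and Ruvbl1, its partner ATPase, at 5.43 with LPS and 5.56 with DMSO.

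Promoter windows of 5 genes that rose are shown, picked because they hold matches to motifs through which the 2 arms of the pathway are known to act. Each runs from 250 bases before to 50 bases after the start of a RefSeq transcript (build GRCm38.p6), and reads 5' to 3' along the gene, with the start at base 251. Capitals mark matches to the ISRE in Isg15 and Ifit1, to the NF-kB consensus in Cxcl2, to NF-kB and AP-1 in Il6, and to AP-1 in Upp1.
Isg15 (chr4:156200769-156201068, minus strand): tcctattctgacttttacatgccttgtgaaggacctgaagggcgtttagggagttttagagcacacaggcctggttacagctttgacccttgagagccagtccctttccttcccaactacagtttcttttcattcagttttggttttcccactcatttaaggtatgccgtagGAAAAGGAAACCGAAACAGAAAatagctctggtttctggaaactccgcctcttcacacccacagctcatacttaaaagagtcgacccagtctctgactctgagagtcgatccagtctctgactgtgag
Ifit1 (chr19:34640639-34640938, plus strand): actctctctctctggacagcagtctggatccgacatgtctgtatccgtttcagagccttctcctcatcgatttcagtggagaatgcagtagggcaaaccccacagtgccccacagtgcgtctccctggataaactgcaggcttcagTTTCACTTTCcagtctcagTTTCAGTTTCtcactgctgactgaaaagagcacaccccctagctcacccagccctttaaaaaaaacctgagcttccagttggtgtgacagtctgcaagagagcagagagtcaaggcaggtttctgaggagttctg
Cxcl2 (chr5:90903649-90903948, plus strand): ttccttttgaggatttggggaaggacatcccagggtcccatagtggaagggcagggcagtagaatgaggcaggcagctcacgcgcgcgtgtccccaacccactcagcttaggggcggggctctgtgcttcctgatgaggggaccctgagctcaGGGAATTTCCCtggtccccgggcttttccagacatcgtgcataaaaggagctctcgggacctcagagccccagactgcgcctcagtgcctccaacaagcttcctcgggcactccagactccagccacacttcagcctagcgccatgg
Il6 (chr5:30012864-30013163, plus strand): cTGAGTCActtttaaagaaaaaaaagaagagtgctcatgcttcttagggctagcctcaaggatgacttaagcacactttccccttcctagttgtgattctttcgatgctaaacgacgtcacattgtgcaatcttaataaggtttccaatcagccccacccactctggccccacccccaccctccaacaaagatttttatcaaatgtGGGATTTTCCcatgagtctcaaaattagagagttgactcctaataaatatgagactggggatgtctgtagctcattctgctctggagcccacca
Upp1 (chr11:9117758-9118057, plus strand): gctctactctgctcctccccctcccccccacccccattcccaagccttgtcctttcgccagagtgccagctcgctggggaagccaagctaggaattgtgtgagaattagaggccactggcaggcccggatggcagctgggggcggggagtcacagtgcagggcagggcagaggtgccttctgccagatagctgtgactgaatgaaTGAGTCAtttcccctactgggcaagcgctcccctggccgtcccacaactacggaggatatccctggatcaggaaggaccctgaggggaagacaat
The window of Isg15, which encodes a ubiquitin-like protein induced by interferon, held 3 ISRE matches that overlap, starting at bases 173, 179 and 185. Ifit1, which encodes a protein that binds viral RNA, held 2 separate ISRE matches starting at bases 147 and 166. In Cxcl2, which encodes a chemokine for neutrophils, 2 overlapping NF-kB matches began at bases 154 and 155. The window of Il6, the gene for interleukin 6, had its NF-kB match at base 207 and an AP-1 match at base 2. Upp1, which encodes uridine phosphorylase, had 3 windows in the RefSeq table, and the first held an AP-1 match at base 206. Its second window overlaps the first and held the same site at base 111, while the third held no match. A match is a description of the letters and does not show binding. Tnf, Ptgs2, Lcn2 and Irf7 also rose, and their windows held no match to these motifs. Cxcl10, which did not pass the size rule, held matches to the ISRE, NF-kB and AP-1.

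Motifs were searched on both strands as GAAA, any 2 bases and GAAA for the ISRE, TGANTCA for AP-1, TGACGTCA for the cyclic AMP response element (CRE), and the NF-kB consensus. A gene counted once if any of its windows held a match. The ISRE was found for 11.9% of the 463 genes with a window that were measured on both arrays and rose, 3.40% of the 206 that fell, and 3.82% of the 10200 measured genes with a window. Of all 32851 windows in the table, each counted by itself, 3.44% held it. AP-1 was found for 12.1% of the genes that rose, 5.34% of those that fell and 6.36% of all measured genes. The NF-kB consensus was in 14.9% of the genes that rose and in 15.5% of those that fell, beside 11.9% of all measured genes. The CRE was found for 2.38% of the genes that rose, 1.46% of those that fell and 3.68% of all measured genes. The 129 genes with a window that were dim with DMSO and passed the rule as bounds had lower shares than the 463, with the ISRE for 5.43%, AP-1 for 7.75%, the NF-kB consensus for 13.2% and the CRE for 2.33%. Of the 35 measured genes with a window that rose at least 8-fold, 28.6% held AP-1 and 20% the ISRE. In the antiviral list described below, 44% of 50 listed genes with a window held an ISRE. NF-kB matches were in 33.3% of 24 listed cytokines and 31.6% of 19 listed chemokines.

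**Figure D1:**
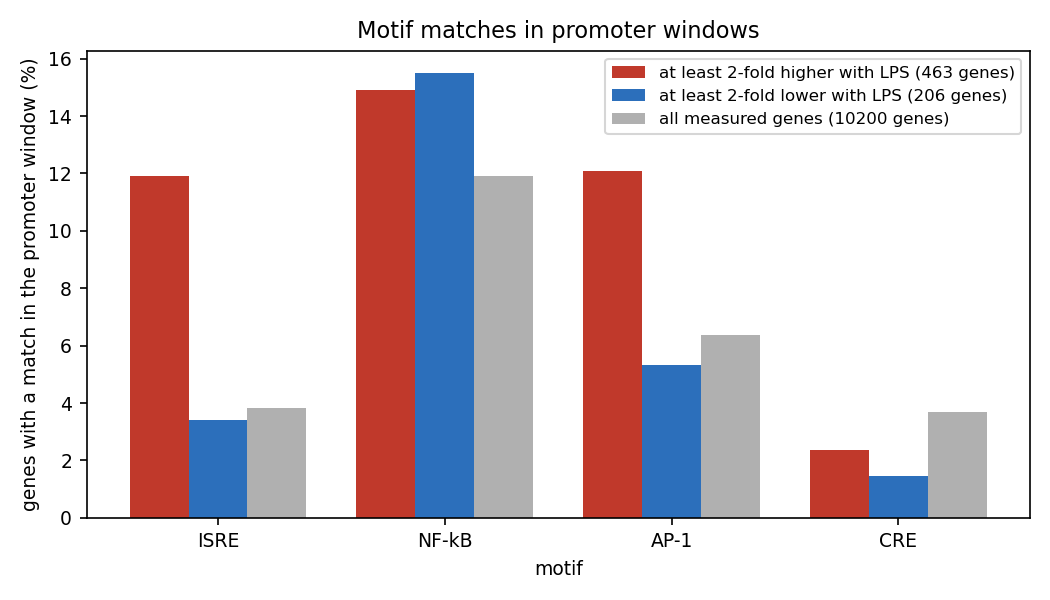
Share of genes (%) with at least 1 match in a promoter window, for measured genes at least 2-fold higher with LPS, measured genes at least 2-fold lower with LPS and all measured genes, by motif, without the bounds. The bars for the genes that rose are above those for all measured genes for the ISRE (11.9% against 3.82%), AP-1 (12.1% against 6.36%) and the NF-kB consensus (14.9% against 11.9%). For the NF-kB consensus the bar for the genes that fell is higher still, at 15.5%.

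Most transcripts differed little. Over the 12720 genes measured on both arrays the median log2 difference, LPS minus DMSO, was -0.00041, 76.8% lay within 0.5 on either side of 0, and the range ran from -4.05 to 7.14. In all 602 genes (4.73%) rose and 262 (2.06%) fell, together 864 (6.79%). The list counts given below are to be read beside these shares. With genes measured on 1 array alone, 775 of 13512 rose (5.74%) and 298 fell (2.21%), together 1073 (7.94%). Past higher folds the counts were 159 genes up and 21 down by at least 4-fold, 51 up and 3 down by at least 8-fold, and 11 up and 0 down by at least 32-fold. Rises made up 13.3% of the genes with a DMSO level below -4 and 1.62% of those with a DMSO level above 4, where the falls made up 1.08%. Genes with a DMSO level below -4 held 0 measured falls, and a 2-fold fall from there would lie below the LPS floor of -4.83. Of the noncoding RNAs, 18 of 591 measured lncRNAs rose and 19 fell.

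**Figure D2:**
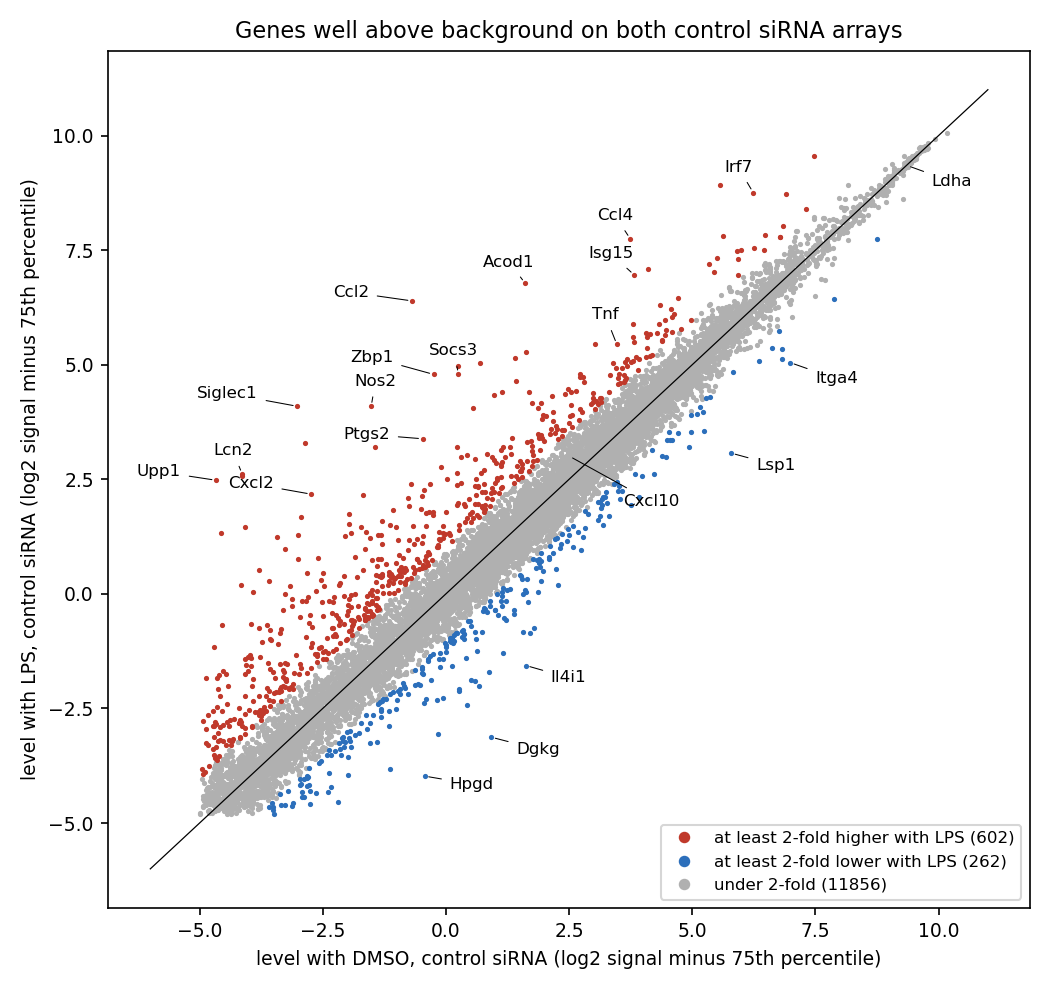
Level with LPS (vertical) against level with DMSO (horizontal) for the 12720 genes measured on both control siRNA arrays, on the scale of log2 signal minus the array's 75th percentile, with the line of equal levels. The 602 genes at least 2-fold higher with LPS reach farther from the line (up to 7.14) than the 262 lower ones (down to -4.05).

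The genes with the largest rises served uridine breakdown, surface recognition, recruitment of cells and iron capture. Upp1 stood at 2.48 with LPS and -4.67 with DMSO, 142-fold higher. Siglec1, the sialic acid-binding lectin CD169 of interferon-exposed macrophages, stood at 4.09 with LPS and -3.02 with DMSO, 138-fold higher, and its second measured probe differed by 5.16. Ccl2, a chemokine for monocytes, stood at 6.39 with LPS and -0.69 with DMSO, 135-fold higher. Lcn2, which encodes the lipocalin that binds bacterial siderophores, was at 2.62 with LPS and -4.13 with DMSO, a 108-fold rise. Fpr2, a receptor for formyl peptides, was at 2.56 with LPS and -4.14 with DMSO, a 104-fold rise. Clec4n, which encodes the fungal sugar receptor Dectin-2, rose 70.5-fold, with 3.28 under LPS and -2.86 under DMSO. These 6 were the measured genes past 64-fold. Klra2, Slamf9, Scimp, Rab15 and Gstt1 were also among the 25 largest rises, with log2 differences from 4.24 to 5.53.

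Several transcripts were dim with DMSO and bright with LPS. Pdpn, which encodes the surface mucoprotein podoplanin, stood at 4.07 with LPS and was at least 599-fold higher. Urah, an enzyme of urate breakdown, stood at 3.66 with LPS and at -5.01, not well above background, with DMSO, a plain difference of 8.67 against an undetected value. Serpinb2, which encodes plasminogen activator inhibitor 2, stood at 1.50 with LPS and was at least 100-fold higher. Of the 12 stefin A genes on the array, which encode inhibitors of cysteine proteases, 0 were measured on both arrays and 6 were measured with LPS alone and at least 2-fold higher. The leading one, Cstdc4, stood at 2.65 with LPS and was at least 224-fold higher. These genes are near-identical copies, so a probe of one may also bind transcripts of another.

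**Figure D3:**
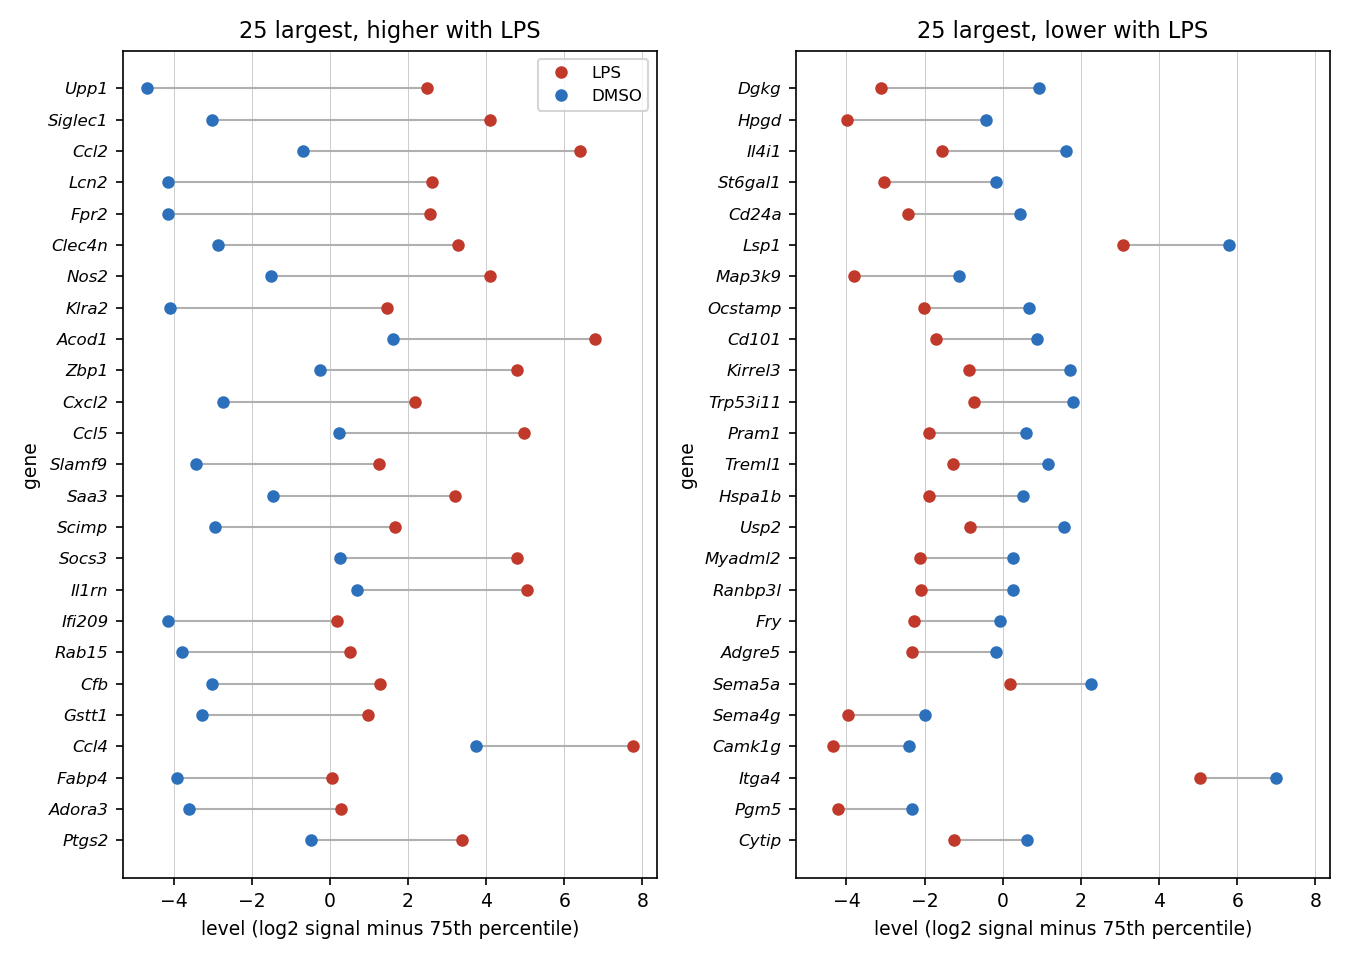
Levels with LPS and with DMSO (log2 signal minus the 75th percentile) for the 25 largest measured rises among the named genes, left, and the 25 largest measured falls among the named genes, right, by rank. The rises span from 7.14 for Upp1 down to 3.86 for Ptgs2, and the falls start at -4.05 for Dgkg.

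Among the secreted signals, chemokines had the highest list median. Of 25 listed chemokines, 11 were measured, with a median log2 difference of 2.64, and 7 rose and 0 fell. Another 3 were measured with LPS alone and at least 2-fold higher. Cxcl2 stood at 2.17 with LPS and -2.73 with DMSO, 30.0-fold higher. Ccl5, a chemokine for T cells, stood at 4.96 with LPS and 0.24 with DMSO, 26.4-fold higher. Ccl4, a chemokine for monocytes and T cells, was at 7.75 with LPS and 3.74 with DMSO, a 16.1-fold rise. The monocyte chemokines Ccl7 and Ccl12 were dim with DMSO and at least 89.8-fold and 27.9-fold higher with LPS. Cxcl10, a chemokine induced by interferon, did not pass the rule, with 3.01 under LPS and 2.50 under DMSO, and Cxcl9 was dim on both arrays.

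Of 35 listed cytokines of the interleukin and TNF families, 17 were measured, with a median of 0.84, and 8 rose and 0 fell. After normexp correction and quantile normalization 5 rose and the median of cytokines of the interleukin and TNF families was 0.404, and it was 0.511 for members at a level of at least -2 on the brighter array. Tnf, the gene for tumour necrosis factor, stood at 5.44 with LPS and 3.47 with DMSO, 3.92-fold higher, and its second probe differed by 2.02. Il1b stood at 2.75 with LPS and at -5.12, not well above background, with DMSO, a plain difference of 7.86 against an undetected value, and the difference ran from 5.08 to 7.94 over the settings tried. Il1rn, the gene for the receptor antagonist that blocks interleukin 1, stood at 5.04 with LPS and 0.69 with DMSO, 20.4-fold higher. Il10, the gene for an anti-inflammatory cytokine, was at -2.07 with LPS and -4.62 with DMSO, a 5.86-fold rise. Il6 stood at -1.41 with LPS, was dim with DMSO, and was at least 13.4-fold higher. Osm, the gene for oncostatin M, rose 5.07-fold, with 1.84 under LPS and -0.50 under DMSO, and Spp1, the gene for osteopontin, 4.23-fold, with 9.56 under LPS and 7.48 under DMSO. Il12b, the p40 subunit of interleukins 12 and 23, was not well above background with LPS (-5.98) and stood at -4.73 with DMSO, and Il12a and Il23a were dim on both. Ifnb1, the gene for interferon beta, stood at -4.26 with LPS and was dim with DMSO, at least 1.86-fold higher and short of the size rule.

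Growth factors were mixed, with 10 of 23 measured at a median of -0.29. Vegfc, a growth factor of lymphatic vessels, stood at 2.15 with LPS and -1.68 with DMSO, 14.2-fold higher. Hbegf, a ligand of the EGF receptor, rose 4.49-fold, with -2.56 under LPS and -4.72 under DMSO, and 0 fell. After normexp correction and quantile normalization 1 growth factor rose. Among members at a level of at least -2 on the brighter array, which leaves out Hbegf, 1 rose as well. The colony-stimulating factor gene Csf3, which drives granulocyte production, was dim with DMSO and at least 44.1-fold higher with LPS at 0.31. Areg, another ligand of the EGF receptor, was dim with DMSO and at least 13.2-fold higher with LPS at -1.44.

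Receptors decide which signals a macrophage answers. Of 43 listed receptors for chemokines and other attractants, 23 were measured at a median of 0.77, and 10 rose and 1 fell. Beside Fpr2, Adora3, an adenosine receptor, stood at 0.28 with LPS and -3.59 with DMSO, 14.7-fold higher. Ccrl2, a receptor that binds chemerin, was at -0.00 with LPS and -3.27 with DMSO, a 9.60-fold rise. Hcar2, the niacin receptor, rose 6.31-fold, with 1.28 under LPS and -1.38 under DMSO, and C3ar1, the receptor of complement fragment C3a, 4.39-fold, with 0.76 under LPS and -1.37 under DMSO. Cx3cr1, the fractalkine receptor of resident macrophages, fell 2.76-fold, with 5.35 under LPS and 6.82 under DMSO, and its second probe differed by -1.56. Ccr7 was dim on both arrays. Of 31 measured receptors for cytokines and growth factors (median -0.073), 5 rose and 0 fell. Il7r, the interleukin 7 receptor, was at -0.27 with LPS and -3.12 with DMSO, a 7.20-fold rise. Tnfrsf1b, which encodes TNF receptor 2, rose 6.19-fold, with 0.98 under LPS and -1.65 under DMSO. Fas, the death receptor, rose 4.42-fold, with 1.48 under LPS and -0.67 under DMSO.

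The genes of LPS sensing itself lay near the median of all genes. Of 33 measured Toll-like receptors, adaptors and kinases, 3 rose and 2 fell, and the median was 0.078. Tlr3, a sensor of double-stranded RNA, rose 2.60-fold to -2.79 with LPS, against -4.17 with DMSO. Cd14, the LPS co-receptor, rose 2.11-fold to 8.39 with LPS, against 7.32 with DMSO. Irak1, a kinase below MyD88, fell 2.04-fold to 1.23 with LPS, against 2.26 with DMSO. Tlr4 itself stood at 2.24 with LPS and 1.89 with DMSO, and Myd88 at 4.21 with LPS and 4.33 with DMSO, neither past the rule.

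Transcription factors and feedback genes moved by individual members. Of 31 measured genes of the NF-kB system (median 0.105), 3 rose and 1 fell. Nfkbiz, which encodes the nuclear IkB zeta needed for part of the LPS response, stood at 1.50 with LPS and -1.13 with DMSO, 6.22-fold higher. Bcl3, another nuclear IkB protein, rose 3.63-fold to 3.89 with LPS, against 2.03 with DMSO. Nfkbia, the gene for IkB alpha, stayed just short of the rule at 6.52 with LPS and 5.58 with DMSO, and Tnfaip3, the gene for A20, stood at 1.24 with LPS and 1.27 with DMSO. Of 41 measured early genes (AP-1, Egr, Klf, Nr4a and Ier; median 0.15), 9 rose and 1 fell. Myc rose 6.28-fold to 0.17 with LPS, against -2.48 with DMSO. Plk2, a kinase of stress responses, rose 6.64-fold to -0.08 with LPS, against -2.81 with DMSO. Id3, an inhibitor of helix-loop-helix factors, fell 2.80-fold to 1.61 with LPS, against 3.09 with DMSO, while its relative Id1 rose 5.55-fold to 1.47 with LPS, against -1.01 with DMSO. Fos stood at 2.67 with LPS and 3.24 with DMSO, and Egr1 at 1.46 with LPS and 0.65 with DMSO, both under 2-fold.

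Of 24 measured feedback inhibitors (median 0.24), 9 rose and 0 fell. Socs3, which blocks gp130 cytokine receptors, stood at 4.79 with LPS and 0.25 with DMSO, 23.3-fold higher. Pilra, an inhibitory receptor, rose 7.72-fold to 0.46 with LPS, against -2.49 with DMSO, and Cd200r1, the inhibitory receptor for CD200, 5.03-fold to -1.09 with LPS, against -3.42 with DMSO. Of 25 measured regulators of mRNA decay (median -0.028), 3 rose and 0 fell, namely Arid5a, which stabilises Il6 mRNA, Zfp36, which encodes the decay factor tristetraprolin, and Zc3h12a, which encodes the RNase Regnase-1. Arid5a rose 7.30-fold to 2.10 with LPS, against -0.77 with DMSO, Zfp36 3.03-fold to 3.78 with LPS, against 2.18 with DMSO, and Zc3h12a 2.82-fold to -1.81 with LPS, against -3.30 with DMSO. Among MAP kinases and their phosphatases (31 measured, median 0.073), the 3 rises were phosphatases, led by Dusp6, which dephosphorylates ERK, at 3.13 with LPS and 1.13 with DMSO, 4.02-fold higher.

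The interferon-stimulated genes moved as a broad group. Of 60 antiviral effector genes on the array, 58 were measured at a median of 1.20, 34 rose and 1 fell, and 53 of the 58 lay above 0. Isg15 stood at 6.96 with LPS and 3.82 with DMSO, 8.80-fold higher. Ifit3b, of the Ifit family that binds viral RNA, was at 0.16 with LPS and -3.16 with DMSO, a 10.0-fold rise, and Ifit1 rose 5.23-fold to 0.24 with LPS, against -2.15 with DMSO. Apol9a and Apol9b, a pair of near-identical apolipoprotein L genes whose probes may bind each other's transcripts, rose 9.30-fold and 9.51-fold, to 4.63 and 4.40 with LPS, against 1.42 and 1.15 with DMSO. Cd274, which encodes the T cell inhibitor PD-L1, rose 6.46-fold to -1.05 with LPS, against -3.74 with DMSO. Rsad2, the gene for viperin, rose 4.01-fold to 0.60 with LPS, against -1.40 with DMSO. Ifi27, an interferon-inducible gene, was the one that fell, to 5.74 with LPS, against 6.76 with DMSO.

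Some of the STAT and IRF factors, through which interferon acts on genes with an ISRE, passed the rule. Their part in the rises of the antiviral list was not tested. Of 18 measured STAT and IRF genes (median 0.31), 3 rose and 0 fell. Irf7, the factor for late interferon genes, stood at 8.76 with LPS and 6.24 with DMSO, 5.74-fold higher. Stat3 rose 2.08-fold to 4.15 with LPS, against 3.09 with DMSO. Irf1 stood at 2.74 with LPS and 2.78 with DMSO, Irf9 at 3.35 with LPS and 3.08 with DMSO, and Stat2 at 3.27 with LPS and 2.42 with DMSO, none past the rule.

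Of 12 measured interferon-inducible GTPases, which attack vacuoles of pathogens, 6 rose and 0 fell, at a median of 0.94. Gbp7 rose 5.28-fold to -1.37 with LPS, against -3.77 with DMSO. Of 30 measured sensors of nucleic acids and inflammasome genes (median 0.51), 11 rose and 0 fell. Zbp1, a sensor of left-handed nucleic acid that can trigger necroptosis, stood at 4.79 with LPS and -0.25 with DMSO, 32.9-fold higher, and its second probe differed by 5.32. Ifi209 and Ifi202b, of the p200 family of DNA-binding proteins, rose 20.3-fold and 13.3-fold, to 0.20 and 5.14 with LPS, against -4.15 and 1.41 with DMSO, and probes of this family may bind related copies. Casp4, the gene for caspase-11 that senses LPS inside the cell, rose 4.21-fold to 4.79 with LPS, against 2.71 with DMSO. Nlrp3 stood at -1.96 with LPS and -1.97 with DMSO. Mlkl, the executor of necroptosis, rose 4.12-fold to 2.98 with LPS, against 0.94 with DMSO. Of the Schlafen genes, 3 of 7 rose (median 0.78), led by Slfn4, with 3.40 under LPS and 1.35 under DMSO, 4.16-fold higher.

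Of 22 measured genes of MHC class I presentation (median 0.67), 7 rose and 0 fell, and 4 rose under quantile normalization over 2 or 4 arrays. The nonclassical genes H2-T10, H2-T22 and H2-T24 rose 3.23-fold, 3.10-fold and 2.68-fold, to 0.40, 2.40 and 2.23 with LPS, against -1.30, 0.77 and 0.80 with DMSO, and probes of these copies may cross-bind. Tap1, a peptide transporter, rose 2.40-fold to 2.23 with LPS, against 0.97 with DMSO. Of 13 measured class II and costimulatory genes (median 0.29), 4 rose and 1 fell. Slamf9, a receptor of the SLAM family, rose 25.6-fold to 1.25 with LPS, against -3.43 with DMSO. Cd40, the receptor for T cell help, rose 3.73-fold to -0.42 with LPS, against -2.32 with DMSO. Cd86, a ligand of CD28, was dim with DMSO and at least 7.21-fold higher with LPS at -2.30. Its partner Cd80 stood at 1.02 with LPS and 1.91 with DMSO, under 2-fold, and Cd83, a maturation marker, fell 2.44-fold to 1.98 with LPS, against 3.27 with DMSO.

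Enzymes of effector functions rose strongly as single genes within lists of modest medians. Nos2, which makes nitric oxide, stood at 4.09 with LPS and -1.52 with DMSO, 48.8-fold higher. Of 23 measured genes of nitric oxide, arginine and polyamines (median 0.35), 6 rose and 0 fell, among them Gch1, which makes a cofactor of nitric oxide synthase, with 5.60 under LPS and 3.80 under DMSO, 3.48-fold higher. Odc1, the first enzyme of polyamine synthesis, rose 4.52-fold to 7.80 with LPS, against 5.63 with DMSO. Arg1 was dim on both arrays. Acod1, which makes itaconate, stood at 6.78 with LPS and 1.61 with DMSO, 36.1-fold higher. It was the only one of 34 measured genes of the citric acid cycle list to pass the rule, and the median of that list was -0.059.

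The prostaglandin genes moved both ways, with 3 rises and 3 falls of 21 measured (median 0.090). Ptgs2, which encodes the inducible cyclooxygenase, stood at 3.38 with LPS and -0.47 with DMSO, 14.5-fold higher. Hpgd, which breaks prostaglandins down, stood at -3.98 with LPS and -0.43 with DMSO, 11.7-fold lower. Tbxas1, which makes thromboxane, fell 3.52-fold to -3.22 with LPS, against -1.41 with DMSO, and Alox5, which starts leukotriene synthesis, 2.18-fold to 2.01 with LPS, against 3.13 with DMSO. Ptgir, the prostacyclin receptor, rose 5.10-fold to -0.17 with LPS, against -2.52 with DMSO.

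Of 14 measured complement genes (median 0.68), 5 rose and 1 fell. Cfb, a component of the alternative pathway, stood at 1.29 with LPS and -3.01 with DMSO, 19.7-fold higher, and Cfp, which encodes the stabiliser properdin, rose 2.95-fold to 7.48 with LPS, against 5.92 with DMSO. C3 stood at 0.27 with LPS and 1.16 with DMSO, under 2-fold. Of 16 measured acute phase and antimicrobial genes (median 0.52), 7 rose and 1 fell. Saa3, an acute phase serum amyloid made by macrophages, was at 3.21 with LPS and -1.45 with DMSO, a 25.3-fold rise. S100a8, a subunit of calprotectin, was dim with DMSO and at least 42.1-fold higher with LPS at 0.24. Hp, the gene for haptoglobin, fell 3.51-fold to -4.58 with LPS, against -2.77 with DMSO. Of 16 measured matrix proteases and inhibitors (median 0.51), 7 rose and 1 fell. Mmp9, a gelatinase, was dim with DMSO and at least 26.7-fold higher with LPS at -0.42. Timp1, an inhibitor of matrix proteases, rose 10.4-fold to 0.77 with LPS, against -2.60 with DMSO. Cst3, the gene for the protease inhibitor cystatin C, fell 2.02-fold to 7.73 with LPS, against 8.75 with DMSO.

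**Figure D4:**
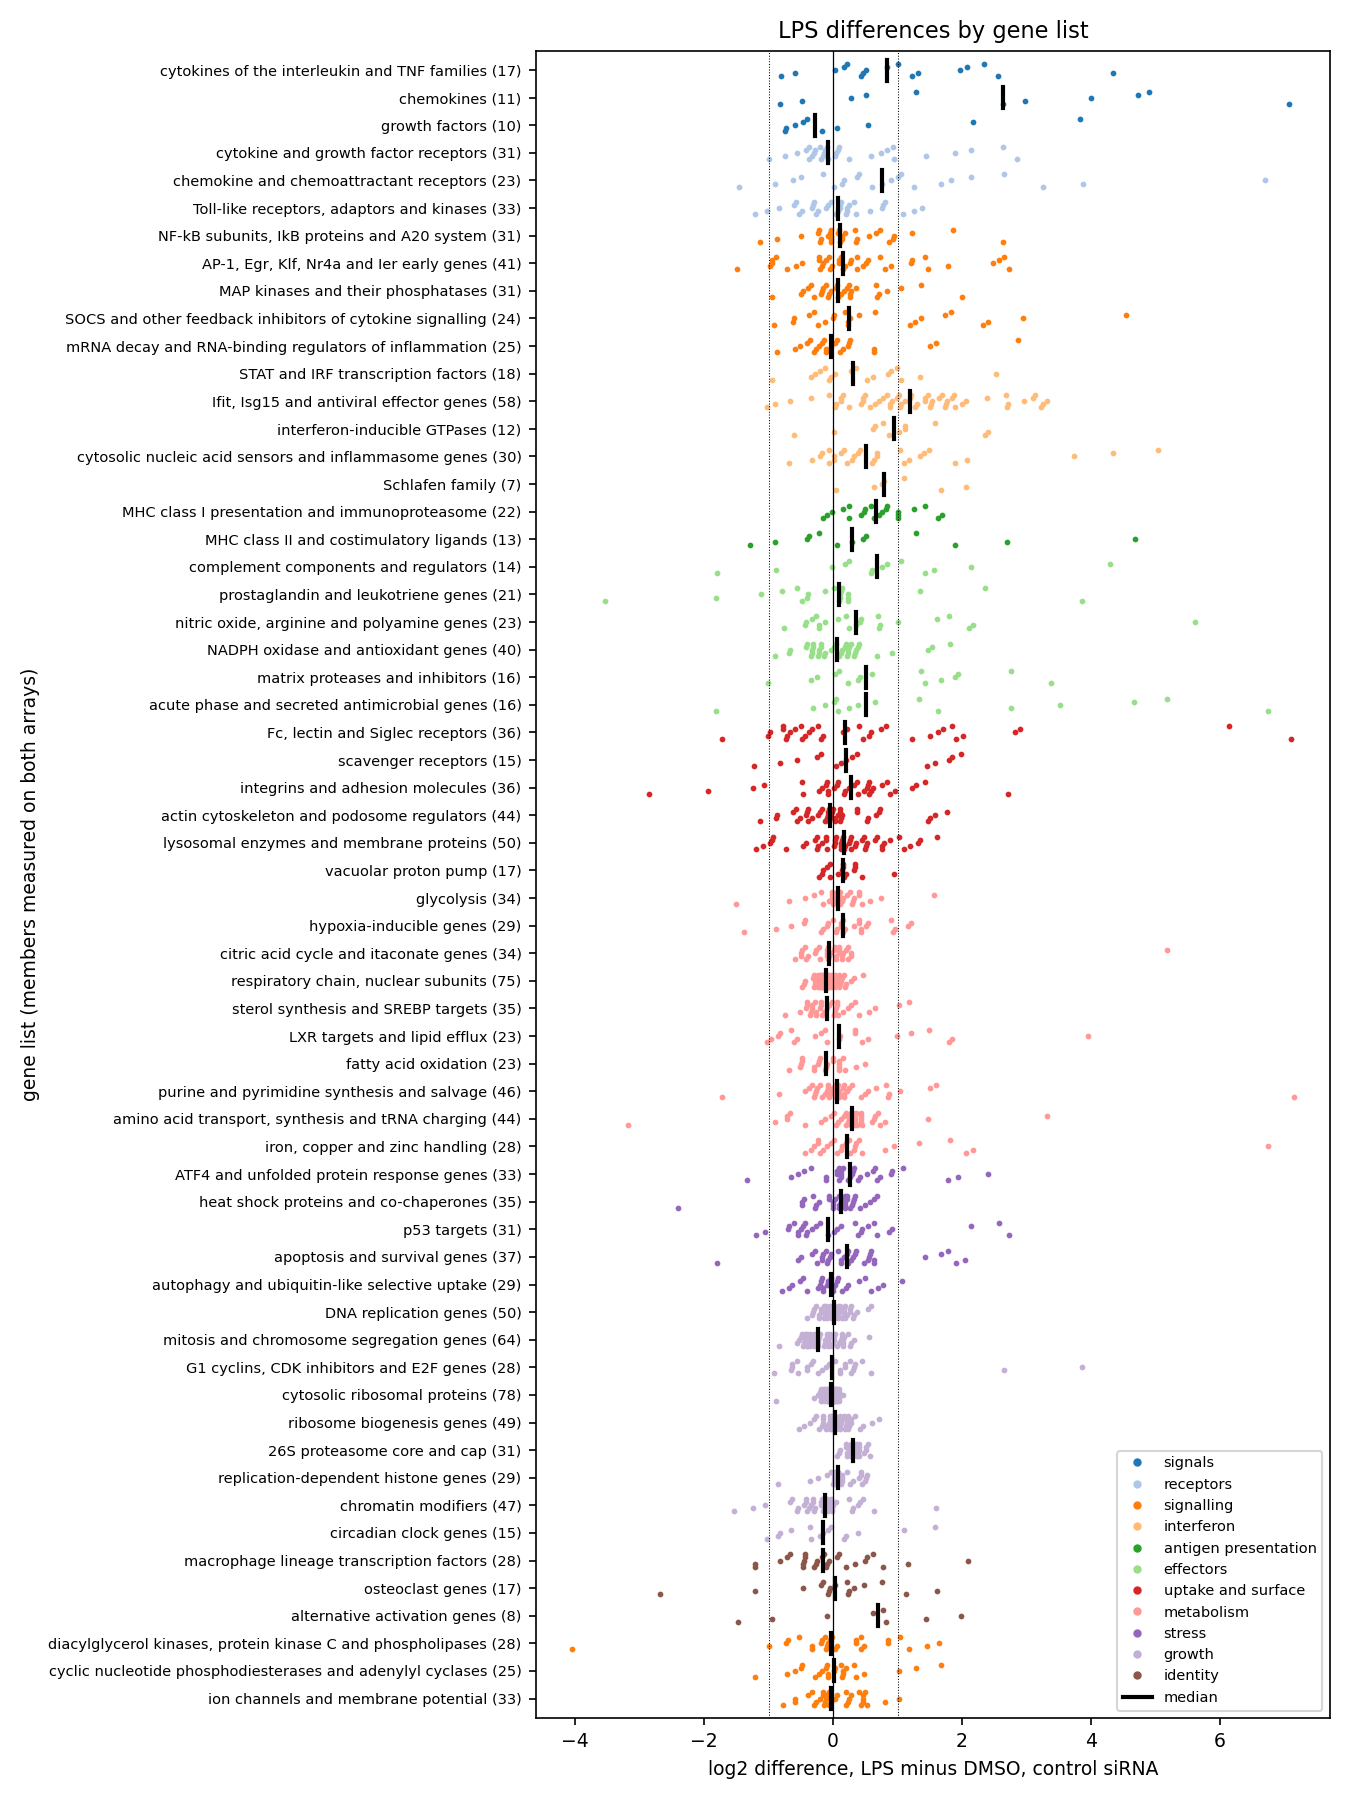
Log2 difference, LPS minus DMSO, of each member measured on both control siRNA arrays (points, coloured by role) with the list median (black bar), for lists with at least 5 measured members. Dotted lines mark 2-fold, and the chemokine list (median 2.64) and the antiviral list (median 1.20) lie farthest to the right, while the ribosomal protein and respiratory chain lists sit within them near 0.

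Surface receptors for uptake moved in both directions, with more rises than falls. Of 36 measured Fc, lectin and Siglec receptors (median 0.18), 11 rose and 2 fell. The Fc gamma receptors Fcgr2b, Fcgr4 and Fcgr1, which bind antibody-coated particles, rose 7.49-fold, 7.09-fold and 4.03-fold, to 1.82, 0.30 and 4.74 with LPS, against -1.08, -2.53 and 2.73 with DMSO. Cd300a, an inhibitory receptor for phospholipids, fell 3.31-fold to 3.21 with LPS, against 4.94 with DMSO. Of 15 measured scavenger receptors (median 0.20), 5 rose and 1 fell. Stab1, a clearance receptor, rose 3.96-fold to -0.73 with LPS, against -2.71 with DMSO, and Cd36, a receptor for oxidised lipids, 3.46-fold to 2.99 with LPS, against 1.20 with DMSO. Lrp1, which takes up many ligands including apolipoproteins, fell 2.34-fold to 3.37 with LPS, against 4.59 with DMSO.

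Of 36 measured integrins and adhesion molecules (median 0.28), 4 rose and 4 fell. Sdc3, a heparan sulphate proteoglycan, rose 6.57-fold to 2.39 with LPS, against -0.33 with DMSO. Itga4, the integrin alpha 4 subunit that binds VCAM-1, fell 3.84-fold to 5.05 with LPS, against 6.99 with DMSO, and its second probe differed by -1.87. Itgb7, which pairs with alpha 4, rose 2.69-fold to 2.42 with LPS, against 1.0 with DMSO. Cd24a, a small glycoprotein, fell 7.24-fold to -2.42 with LPS, against 0.44 with DMSO. Icam1 stood at -0.18 with LPS and 0.29 with DMSO. Of 44 measured regulators of actin (median -0.051), 4 rose and 1 fell. Marcks, a membrane protein that binds actin, was dim with DMSO and at least 30.0-fold higher with LPS at -0.25. Myo1f, a myosin of leukocytes, fell 2.19-fold to 3.35 with LPS, against 4.48 with DMSO. Of 50 measured lysosomal genes (median 0.16), 6 rose and 2 fell. Acp5, the tartrate-resistant phosphatase, rose 3.05-fold to 3.33 with LPS, against 1.72 with DMSO, and Man2b1, a mannosidase, fell 2.29-fold to 3.51 with LPS, against 4.70 with DMSO. None of the 17 subunits of the vacuolar proton pump passed the rule, with differences from -0.21 to 0.95.

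The lists of core metabolism had medians near 0, apart from single enzymes. Of 34 measured glycolytic genes (median 0.076), 1 rose and 1 fell. Hk3, a hexokinase of myeloid cells, rose 2.97-fold to 5.89 with LPS, against 4.32 with DMSO, while Ldha stood at 9.35 on both. Pdk2, which inhibits pyruvate dehydrogenase, fell 2.83-fold to -4.43 with LPS, against -2.93 with DMSO. The 75 measured nuclear subunits of the respiratory chain had a median of -0.106, 17 lay above 0, and the differences ran from -0.49 to 0.47. Fatty acid oxidation genes (23 measured, median -0.10) gave 0 rises and 0 falls. Of 46 measured purine and pyrimidine genes (median 0.055), 4 rose and 1 fell. Beside Upp1, Cda, which deaminates cytidine to uridine, was dim with DMSO and at least 10.8-fold higher with LPS at -1.72. Cmpk2, a mitochondrial nucleotide kinase, rose 2.82-fold to 1.36 with LPS, against -0.14 with DMSO. Pnp2, a purine phosphorylase, fell 3.31-fold to -2.88 with LPS, against -1.15 with DMSO.

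The lists of lipid, amino acid and metal handling held single genes with large differences. Rises made up 5.71% of the sterol list and 4.55% of the amino acid list, near the 4.73% of all measured genes. Fabp4, a fatty acid chaperone, stood at 0.04 with LPS and -3.91 with DMSO, 15.5-fold higher, in a list of LXR and lipid efflux genes with 5 rises and 1 fall of 23 (median 0.092). Of 35 measured genes of sterol synthesis and SREBP targets (median -0.088), 2 rose and 0 fell. Of 44 amino acid genes (median 0.29), 2 rose and 1 fell. Cth, which makes cysteine, was at 1.27 with LPS and -2.05 with DMSO, a 9.98-fold rise. Il4i1, a secreted oxidase of aromatic amino acids, fell 9.10-fold to -1.56 with LPS, against 1.62 with DMSO. Of 28 metal-handling genes (median 0.22), 5 rose and 0 fell. Slc11a1, which pumps iron and manganese out of the phagosome, rose 4.49-fold to 4.32 with LPS, against 2.16 with DMSO. Mt2, a metallothionein, rose 3.53-fold to 8.73 with LPS, against 6.91 with DMSO.

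A few stress genes passed the rule. Of 33 measured genes of the ATF4 and unfolded protein responses (median 0.26), 4 rose and 1 fell. Trib3, Chac1 and Ddit3, targets of ATF4, rose 5.29-fold, 3.81-fold and 3.42-fold, to 4.16, 3.89 and 1.78 with LPS, against 1.75, 1.96 and 0.00 with DMSO. Dnajc3, a chaperone that inhibits PERK, fell 2.53-fold to -0.35 with LPS, against 0.99 with DMSO. Of 35 heat shock genes (median 0.12), 0 rose and 1 fell. That was Hspa1b, an inducible HSP70, at -1.89 with LPS and 0.51 with DMSO, 5.29-fold lower. Of 40 NADPH oxidase and antioxidant genes (median 0.066), 3 rose and 0 fell, and Sod2 stood at 1.33 with LPS and 1.55 with DMSO. Among 37 apoptosis and survival genes (median 0.22), 5 rose and 1 fell. Pim1, a survival kinase, rose 3.75-fold to 2.63 with LPS, against 0.72 with DMSO, and Bcl2l1, the gene for BCL-XL, 3.18-fold to 5.49 with LPS, against 3.82 with DMSO. Bmf, a BH3-only gene that promotes death, fell 3.48-fold to -1.40 with LPS, against 0.40 with DMSO.

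In 6 lists of growth and the cell's core machinery no gene passed 2-fold. Of 50 replication genes (median 0.0097), 64 mitosis genes (median -0.24), 78 cytosolic ribosomal proteins (median -0.038), 49 ribosome biogenesis genes (median 0.037), 31 proteasome subunits (median 0.31) and 29 histone genes (median 0.069), 0 rose and 0 fell. The mitosis genes ran from -0.84 to 0.55 with 17 of 64 above 0, and all 31 proteasome subunits lay above 0, between 0.068 and 0.57. Of 28 G1 genes (median -0.014), 2 rose and 0 fell. Ccnd2, the gene for cyclin D2, stood at -0.69 with LPS and -4.54 with DMSO, 14.5-fold higher. Of 47 chromatin modifiers (median -0.13), 1 rose and 3 fell. Kdm5b, a histone demethylase, rose 3.03-fold to 1.11 with LPS, against -0.49 with DMSO. Dnmt3a, a de novo DNA methyltransferase, fell 2.91-fold to 1.25 with LPS, against 2.79 with DMSO.

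Of the genes measured on both arrays, Dgkg, a kinase that removes diacylglycerol, fell furthest and stood at -3.13 with LPS and 0.92 with DMSO, 16.6-fold lower. St6gal1, which adds sialic acid to glycoproteins, stood at -3.05 with LPS and -0.16 with DMSO, 7.41-fold lower. Lsp1, an actin-binding protein of leukocytes, fell 6.59-fold to 3.07 with LPS, against 5.79 with DMSO, and its other 2 probes differed by -2.96 and -2.87. Of 17 measured osteoclast genes (median 0.035), 2 rose and 2 fell, and of 28 measured lineage transcription factors (median -0.16), 2 rose and 2 fell. Ocstamp, which drives osteoclast fusion, fell 6.44-fold to -2.02 with LPS, against 0.67 with DMSO, and Nfatc1, the master factor of osteoclasts, 2.32-fold to 0.73 with LPS, against 1.94 with DMSO. The largest rise of the osteoclast list was that of Acp5, given above with the lysosomal genes, at 3.05-fold. Another 2 osteoclast genes were measured with LPS alone and at least 2-fold higher. Maf, a factor of resident macrophages, was dim with DMSO and at least 20.2-fold higher with LPS at -0.82. Cebpd, a C/EBP factor of the acute phase, rose 4.26-fold to 5.88 with LPS, against 3.79 with DMSO.

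The second pair of arrays in the series, LPS against DMSO with Ruvbl2 siRNA, shares no array with the control siRNA pair. There 404 of 12655 measured genes were at least 2-fold higher (3.19%) and 207 at least 2-fold lower (1.64%). Of the 602 genes that rose with control siRNA, 574 were also measured in that pair, 562 of them lay on the same side of 0, and 324 passed the rule the same way. Of the 262 that fell, 259 were measured, 256 lay on the same side, and 117 passed the rule. The median differences of the genes that rose were 1.47 with control siRNA and 1.1 with Ruvbl2 siRNA, and of the genes that fell -1.24 with control siRNA and -0.97 with Ruvbl2 siRNA. These genes were picked for their size in the control siRNA pair, so the medians of the pairs are given side by side and not compared. Ccl2 stood at 5.97 with LPS and -0.40 with DMSO under Ruvbl2 siRNA, a difference of 6.38. Nos2 stood at 3.06 with LPS and -1.58 with DMSO under Ruvbl2 siRNA, a difference of 4.63. Dgkg stood at -2.84 with LPS and 0.80 with DMSO under Ruvbl2 siRNA, a difference of -3.65. Hspa1b, at 0.44 with LPS and 0.88 with DMSO, and Tbxas1, at -2.40 with LPS and -2.31 with DMSO, did not pass the rule under Ruvbl2 siRNA. The antiviral list had 34 rises of 58 measured with control siRNA and 42 of 58 with Ruvbl2 siRNA, and 32 genes passed in both. The list of chemokines had 7 rises of 11 in each pair, and 6 genes passed in both. Other lists varied in how many of their rises with control siRNA passed in both pairs. It was 7 of 9 for feedback inhibitors and 5 of 5 for apoptosis and survival genes. Fewer did so among scavenger receptors (2 of 5) and lysosomal genes (1 of 6). The same held for ATF4 and unfolded protein response genes (1 of 4) and for Toll-like receptors, adaptors and kinases (0 of 3).

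**Figure D5:**
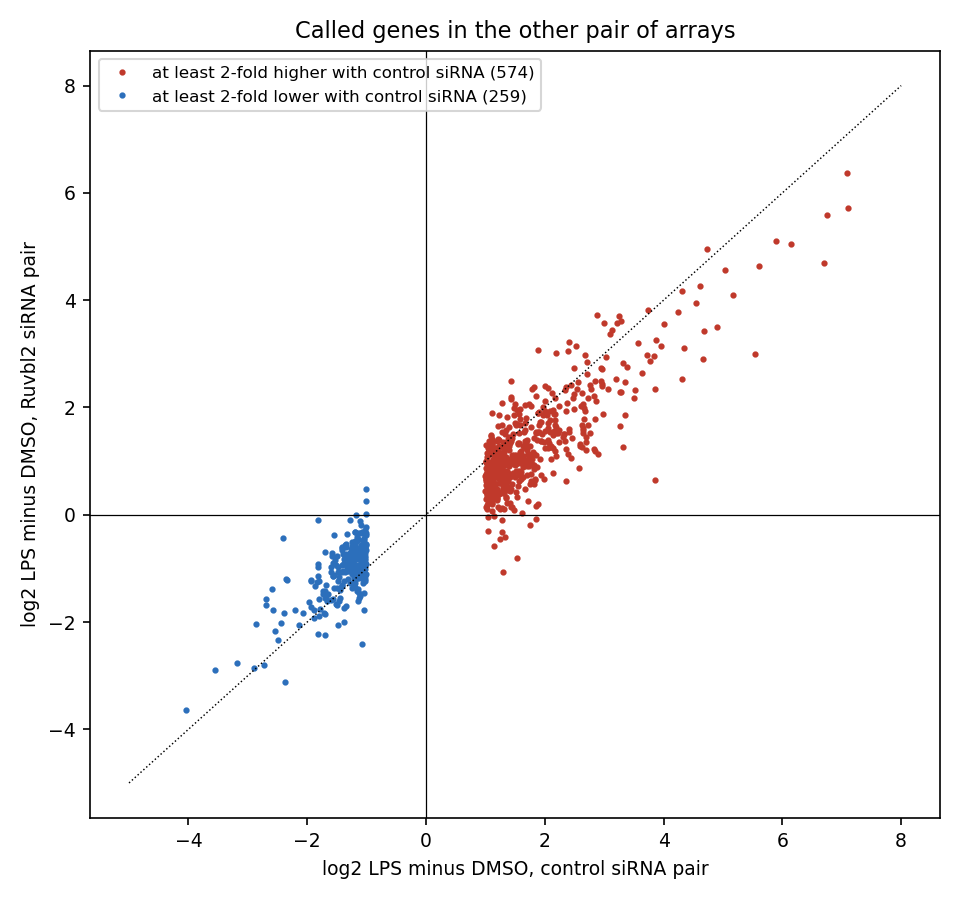
Log2 difference, LPS minus DMSO, in the Ruvbl2 siRNA pair (vertical) against the control siRNA pair (horizontal) for genes past 2-fold with control siRNA and measured in both pairs, with the dotted line of equal differences. Of the 574 genes that rose, 562 lie above 0 in the other pair, and of the 259 that fell, 256 lie below 0.

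Some runs of neighbouring genes passed the rule in 1 direction. Counting the compared genes in chromosome order, 8 consecutive genes on chromosome 11 were higher with LPS: Ccl5, Ccl9, Ccl6, Ccl3, Ccl4, Wfdc17, Wfdc18 and Wfdc21. On chromosome 7, 6 consecutive genes including Trim34a, Trim34b, Trim12c, Trim30a and Trim30d were higher, and on chromosome 16 the stefin genes Csta3, Cstdc5, Stfa2 and Stfa3 were followed by Cd86. On chromosome 5, the run of 5 was Afp, Rassf6, Pf4, Cxcl3 and Cxcl2. Many of these are copies of one another, whose probes may share targets. The longest run that was lower with LPS had 3 genes, Nectin1, Usp2 and Gm38444, on chromosome 9.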

How the data were processed

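RNA of 4 cultures was labelled with Cy3 and hybridised to 1-colour Agilent mouse arrays, 1 array per group, and the 2 with control siRNA are compared here. The deposited values are intensity values, which the authors read with Agilent Feature Extraction 11.0 per the submitters' processing notes and version 11.5.1.1 per the file headers, background-subtracted and detrended within the array. The deposited value table equalled the processed signal at all 62976 spots. The members and gene lists were chosen with earlier results of these data known, and some genes stand in several lists.

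Spots marked as population or non-uniform outliers were left out (73 with LPS and 72 with DMSO), spots of a probe were averaged, and levels were log2 signal minus the 75th percentile over RNA probes. Probes were named through RefSeq accessions, which gave 32994 of 56605 probes and 22911 genes, and the probe brightest on average across all 4 arrays stood for its gene. A difference was called at 2-fold. Named genes were a panel of LPS response genes with Ruvbl1 and Ruvbl2, the 25 largest measured differences per direction that kept their sign after normexp correction and quantile normalization, the 10 largest bounds per direction, and up to 4 members per direction and 2 bounds of each list. Genes under 2-fold and further members of lists, families and chromosome runs were named after their values were seen. Alternatives used limma 3.58.1 in R 4.3.3; the files hold no mean signal, so normexp (offset 50) used the median and background median signals. Promoter windows came from RefSeq (GRCm38.p6). Some genes are not reported here.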

Additional observations from a re-analysis of the deposited data

Results flagged for a closer look

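Of the genes past 2-fold higher with control siRNA, 2 were drawn out because they lay past 2-fold on the other side of 0 in the Ruvbl2 siRNA pair. Their difference between the pairs was not tested, since each group had 1 array. Pi16, a peptidase inhibitor gene, stood at 0.39 with LPS and -0.91 with DMSO under control siRNA, a difference of 1.30, and differed by -1.08 with Ruvbl2 siRNA, where it stood at -0.43 with LPS and 0.65 with DMSO. Col9a2, a collagen gene, stood at -4.06 with LPS and at -5.14, not well above background, with DMSO under control siRNA, a plain difference of 1.08 against an undetected value. It differed by -1.23 with Ruvbl2 siRNA, where it stood at -4.55 with LPS and -3.32 with DMSO. After normexp correction and quantile normalization the control siRNA differences were 1.06 for Pi16 and 0.17 for Col9a2.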

How the results depend on the processing

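The counts of 775 genes higher and 298 lower with LPS became 448 and 155 with normexp correction and quantile normalization, and 229 and 26 under a 4-fold rule, where rises made up 89.8% of the calls, against 72.2% at 2-fold. Under the other alternatives they lay between 543 and 840 higher and between 216 and 307 lower. Spike-in scaling moved the median of all measured genes to 0.051. Of 268 named genes that were called, 204 kept the call after normexp and quantile normalization, and direction there was part of the rule that named the largest differences. That setting moved the count of rises by over 1.5 times in 13 of 71 lists, the mean of probes in 6, a level of at least -2 in 6, and the 4-fold rule in 47. With the mean of a gene's probes 267 kept their direction, Timp2 going to 0.890 from a bound on the DMSO array alone, and the median of the NF-kB system going to -0.004. For Ccl2 the difference ran from 6.76 to 7.13 over the settings, for Nos2 from 4.96 to 5.66, for Tnf from 1.87 to 2.02, for Il1b from 5.08 to 7.94, and for Il6 from 1.78 to 3.80. The cause of these shifts was not tested. No paired analysis was possible because each group has 1 array. Small differences of dim probes are within the error between spots (SD 0.50 at a DMSO level of -4.67). Of the list medians, 14 took both signs over the settings, all from values between -0.073 and 0.105.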

Other observations

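Further lists are given beside the 6.79% of all measured genes that were called in either direction. Of 15 measured circadian clock genes (median -0.16), 2 rose and 1 fell, and Nr1d1, which encodes the repressor REV-ERB alpha, stood at -2.06 with LPS and -3.64 with DMSO, 2.98-fold higher. Of 29 hypoxia-inducible genes (median 0.15), 2 rose and 1 fell, and Plin2, which coats lipid droplets, rose 2.32-fold to 5.13 with LPS, against 3.92 with DMSO. Of 31 p53 targets (median -0.081), 3 rose and 2 fell, and of 29 autophagy genes (median -0.028), 1 rose and 0 fell. Of 8 measured alternative activation genes (median 0.70), 2 rose and 1 fell. Gas6, a ligand of the clearance receptors Axl and Mertk, fell 2.78-fold to -2.0 with LPS, against -0.52 with DMSO, while Axl rose 2.99-fold to 0.42 with LPS, against -1.16 with DMSO. Of 25 phosphodiesterase and adenylyl cyclase genes (median 0.019), 3 rose and 1 fell, with Crem, a cyclic AMP-responsive factor, 3.18-fold higher at 0.25 with LPS and -1.42 with DMSO. Of 28 diacylglycerol kinase, protein kinase C and phospholipase genes (median -0.038), 4 rose and 1 fell. Dgka rose 3.13-fold to -1.08 with LPS, against -2.72 with DMSO, in the same family in which Dgkg was 16.6-fold lower. Of 33 ion channel genes (median -0.037), 1 rose and 0 fell. After normexp correction and quantile normalization 0 clock, 0 autophagy, 0 ion channel, 1 alternative activation, 1 phosphodiesterase and cyclase and 2 diacylglycerol kinase, protein kinase C and phospholipase genes rose.

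Some gene families outside the lists also had several called members, beside 4.73% of all measured genes that rose and 2.06% that fell. Counts in other families looked at were 14 rises of 221 measured Slc solute carriers, 1 of 24 cytochromes P450 and 1 of 32 kinesins. Of 6 measured Ms4a genes, which encode four-span membrane proteins (median 1.87), 4 rose and 0 fell. Ms4a6d stood at 3.04 with LPS and 0.42 with DMSO, 6.13-fold higher. Of 15 measured semaphorin and plexin genes, which encode guidance ligands and their receptors (median -0.22), 1 rose and 5 fell. Sema5a fell 4.20-fold to 0.20 with LPS, against 2.27 with DMSO, and Sema4d 2.76-fold to 2.07 with LPS, against 3.53 with DMSO. Of 11 measured glutathione transferases (median 0.16), 3 rose and 0 fell, led by Gstt1, which stood at 0.98 with LPS and -3.26 with DMSO, 18.9-fold higher. Of 314 measured Zfp zinc finger genes (median -0.095), 2 rose and 2 fell, and of 78 mitochondrial ribosomal proteins 0 rose and 0 fell. Sqor, a mitochondrial enzyme that oxidises sulphide, rose 11.4-fold to 1.53 with LPS, against -1.98 with DMSO. Procr, the receptor of protein C, rose 13.1-fold to 1.75 with LPS, against -1.96 with DMSO. Probes without a gene name numbered 23611, and of the 9676 measured on both arrays 232 were at least 2-fold higher and 218 at least 2-fold lower. Of 295 further measured probes of called genes, 257 lay on the same side of 0 as the representative probe and 145 passed the call in the same direction.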
